A study of Homo sapiens with 12 samples.

Results

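DNA replication and S phase genes were followed across 12 human breast cancer xenografts. The group holds 49 genes, listed by symbol for their known part in copying the genome, with no threshold on a measured value, among 25369 gene symbols in the count table. All 49 are in the table, and 47 had enough counts to be tested. TYMS, which makes the thymidine nucleotide, had 1 to 7 counts per library and E2F2, a transcription factor of S phase entry, had 4 to 12, so both were left untested. Exons of TYMS overlap ENOSF1 and TYMSOS on the other strand in the GENCODE annotation, and TYMS has 2 named pseudogenes. Its reads may have been lost in counting, so its low counts are not read as low expression.

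A cell licenses its origins in G1 by loading the MCM2 to MCM7 helicase with the help of the origin recognition complex, CDC6 and CDT1. At the start of S phase the kinases that drive the cycle turn the loaded helicase into an active one by adding CDC45 and the GINS complex, and DNA polymerases, the sliding clamp PCNA and a supply of deoxynucleotides then carry the copying. Most of these genes are transcribed periodically under E2F factors, which the retinoblastoma proteins hold back until cyclin-dependent kinases act, so their transcripts are often used as a measure of proliferation in tumours.

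RNA was sequenced from tumours of MDA-MB-231, an established human triple-negative breast cancer line, grown in the right inguinal mammary fat pad of mice whose strain the labels do not name. Cells were injected in 50 µl of Matrigel, and at a tumour volume of 100 mm3 intraperitoneal dosing began on 5 days of each week, with 10 mice per group and 3 sequenced tumours per group. Control tumours had the vehicle alone (4% DMSO, 30% PEG 300 and 5% Tween 80). In the p38i group mice had SB202190, an inhibitor of p38 MAP kinases, given at a dose of 1 mg/kg/day. The EZH2i group had an inhibitor of the histone H3 lysine methyltransferase EZH2 at 10 mg/kg/day, written both EPZ-6428 and EPZ-6438 in the labels. The combination group had both compounds, with no doses given for it. How long the mice were treated is not given. All tumours came from 1 cell line, and the series asks what each inhibitor, alone and with the other, does to gene expression in such tumours.

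Library totals ran from 2208771 to 4467942 counts, and the median member had 102 counts per library. Levels are given as CPM, the counts-per-million unit, after TMM scaling of the library totals (a correction for differences in composition). Gene length is not taken into account, so levels are compared between libraries and never between genes. Libraries carry the tumour numbers of the titles, except for p38i column 5 and p38i column 6: the labels name column 5 for both remaining p38i tumours and column 6 for none, so column 6 was taken as p38i by elimination. Markers of the injected line (VIM, CD44, EGFR, KRT18, AXL) summed to between 5360 and 7630 CPM, of which VIM alone measured 3770 to 6380. Of the markers that this line is known to lack, GATA3 measured 23.1 to 42.6 CPM and CDH1, E-cadherin, 0.249 to 55.4. ESR1 measured 1.24 to 13.1, PGR 2.69 to 7.16 and FOXA1 1.49 to 12. p38i column 6 stood apart by 12 skeletal muscle markers that summed to 544 CPM, against at most 29.6 in any other library. The part of that tissue in the results was not tested, and p38i values without this library are given for the whole group, for its roles and for the genes that moved most. Fibroblast markers (8 genes) summed to 458 to 956 CPM in control, 289 to 888 in p38i, then 640 to 983 in EZH2i and 540 to 1130 in combination tumours, ranges that overlap. The fibroblast sums were carried mainly by collagen genes, with COL1A1, COL1A2 and COL3A1 reaching 617, 138 and 370 CPM. DCN, LUM, PDGFRA, PDGFRB and FAP reached 1.31, 5.83, 13.8, 67.4 and 8.07. In RNA from whole tumours, more cells in S phase and more replication transcripts per cell cannot be told apart.

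With p38i alone, the replication genes were mostly above control, and MCM3 and MCM10 rose. MCM3, a subunit of the replicative helicase, was 1.72-fold and MCM10, which helps to activate that helicase, 1.79-fold above control. Of 47 members, 43 had a positive fold change, where 49.9% of all 12514 genes tested did. Only these 2 passed the edgeR quasi-likelihood test at an adjusted p of 0.05, where 1.77% of all genes were called, 0.655% higher and 1.11% lower. The median log2 fold change of the members was 0.53, beside 0 over all genes, and it ran from -0.32 for RFC1 to 1.33 for CLSPN. All 3 p38i tumours lay above all 3 controls in 14 members (29.8%), against 12.3% of all genes, and below them in 1, against 12.5%. At an unadjusted p of 0.05, 15 members were higher and 1 lower, beside 9.08% and 9.3% of all genes.

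Each of the other treatments also gave mostly positive values, but no member passed. With EZH2i, 40 of 47 members had a positive fold change (51% of all genes), and the members' median log2 was 0.30. None was called by edgeR (0.216% of all genes were, 0.0879% higher and 0.128% lower), and the smallest adjusted p was 0.0749, for MCM10. At an unadjusted p of 0.05, 12 members were higher (7.43% of all genes) and 1 was lower (7.29%), and 9 members lay wholly above the controls, against 8.32% of all genes, and 1 below them, against 8.09%. With the combination, 38 had a positive fold change (50.4% of all genes), and the members' median was 0.36. None was called (0.00799% of all genes were), and the smallest edgeR adjusted p was 0.0958, again for MCM10. There, 13 members were higher at an unadjusted p of 0.05 (7.66% of all genes) and 1 was lower (8.67%). Wholly above the controls lay 14 members, against 10.7% of all genes, and wholly below them 2, against 11.2%. All 3 comparisons use the same 3 control tumours, so their directions are not independent of one another. The members were measured in the same tumours, so a count of members is not a count of independent observations.

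**Figure D1:**
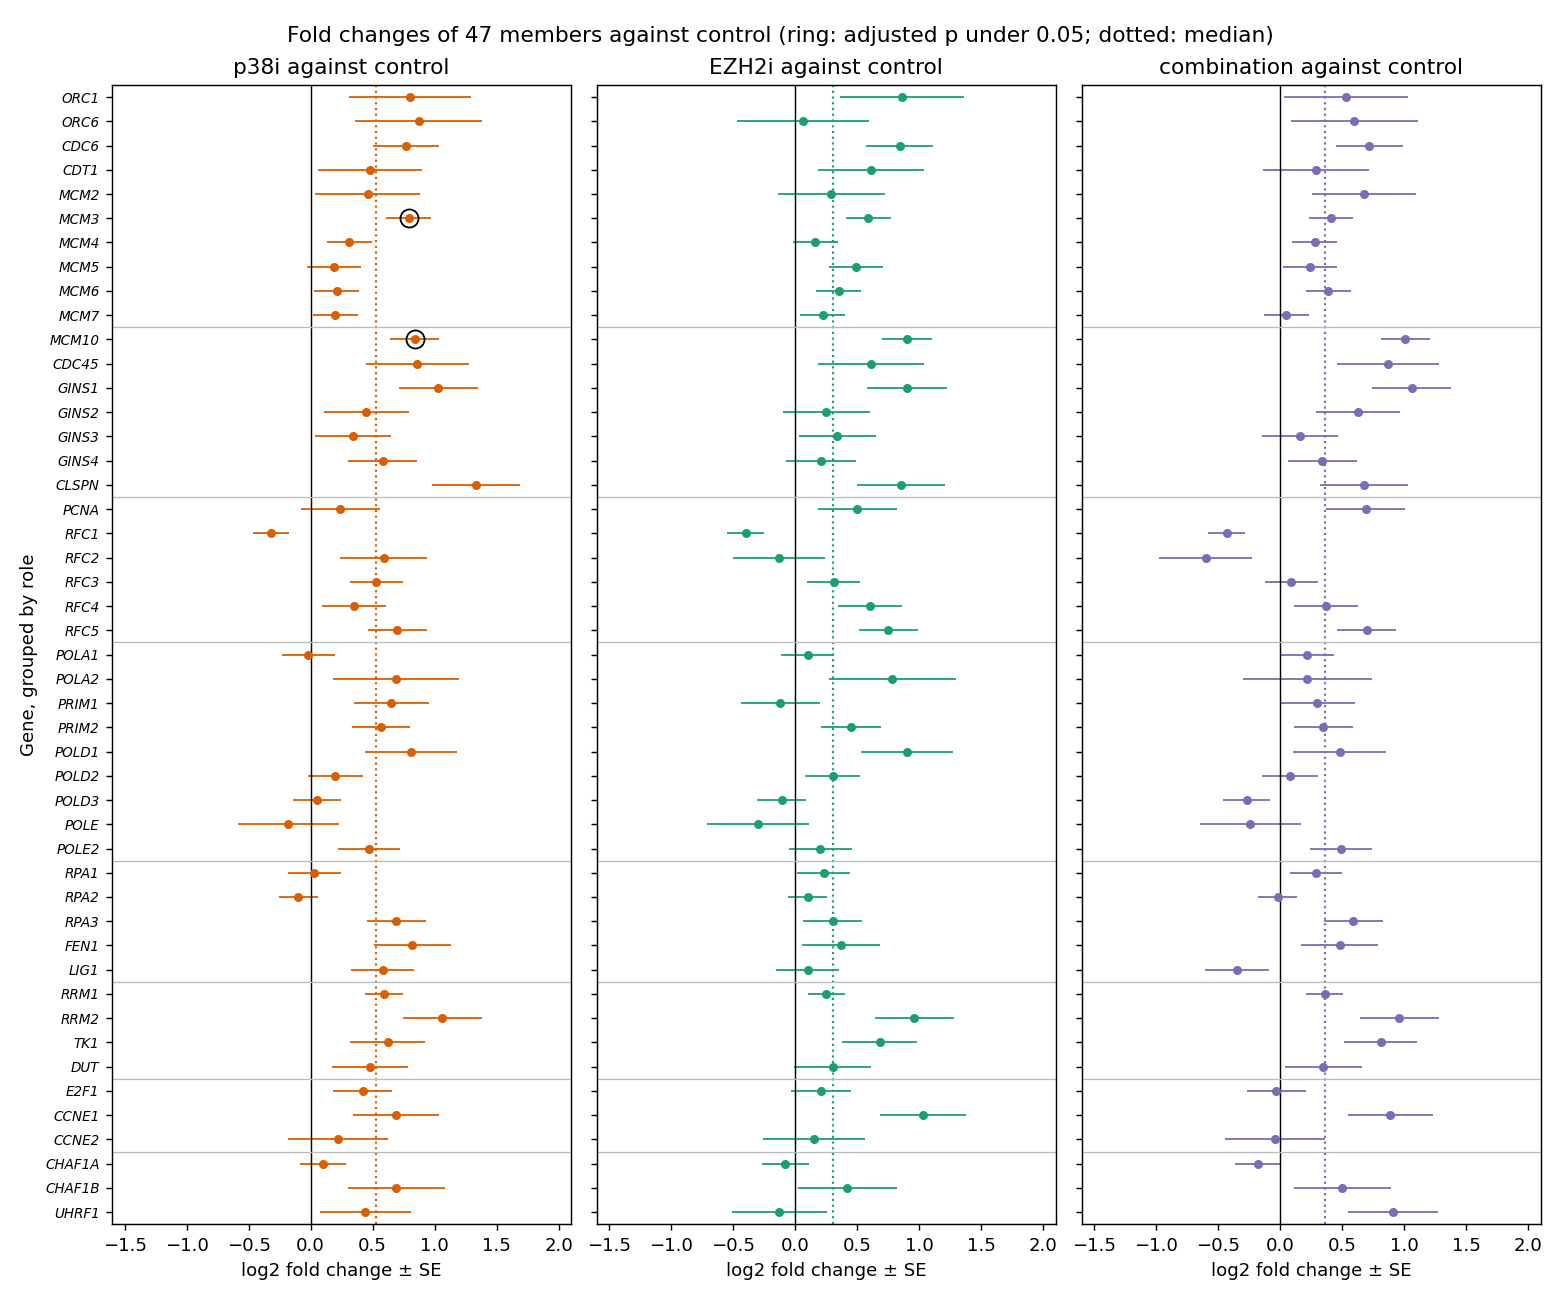
Log2 fold change against control (x axis, points, with bars of 1 SE) of the 47 tested members (y axis, grouped by role) with p38i, EZH2i and the combination. A dotted line marks the median in each panel (0.53, 0.30 and 0.36) and rings mark the 2 genes called, MCM3 and MCM10 with p38i. RFC1 lies left of 0 in every panel.

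The controls differed widely among themselves. Control 1-1 had the lowest value of the 3 controls in 31 of 47 members and the lowest of all 12 libraries in 25, and control 2-1 had the highest control value in 30. Relative to each gene's mean over the 12 libraries, the members' median log2 CPM was -0.55 in control 1-1, -0.32 in control 1-3 and -0.07 in control 2-1. It was -0.07, 0.18 and 0.50 in p38i 3-3, column 5 and column 6, and -0.05, 0.27 and 0.03 in EZH2i 5-3, 5-4 and 6-1. In combination 8-1, 9-1 and 9-2 it was 0.20, 0.01 and 0.11. Between libraries of a group this median had an SD of 0.21, pooled over the 4 groups. Control 2-1 was thus level with p38i 3-3 and close to EZH2i 5-3, while the other 2 controls lay below every treated tumour. Library totals in controls 1-1, 1-3 and 2-1 were 2484579, 3429634 and 4360021 counts, in the order of their medians. The p38i totals (2956275, 3520976 and 4104159) also followed their medians. Those of EZH2i (2565786, 4017843 and 2208771) and combination tumours (3431069, 4467942 and 3115765) did not. The part of the library total in these differences was not tested. Among the controls, 13 members differed more than 2-fold between the highest and the lowest tumour, led by MCM2 (5.13-fold) and CDC45 (4.47-fold). In control 1-1 these genes had only 15 and 7 counts. How many of all genes differed that much, or were lowest or highest in a given library, was not counted. Among the treated libraries, p38i column 6 had the highest value of all 12 in 20 members and EZH2i 5-4 in 16. The fibroblast markers summed to 956, 561 and 458 CPM in controls 1-1, 1-3 and 2-1, the reverse of the order of the members' medians. In EZH2i 5-3, 5-4 and 6-1 they summed to 640, 983 and 825, the same order as the medians. In p38i and combination tumours they followed neither order, and the part of tissue composition was not tested.

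**Figure D2:**
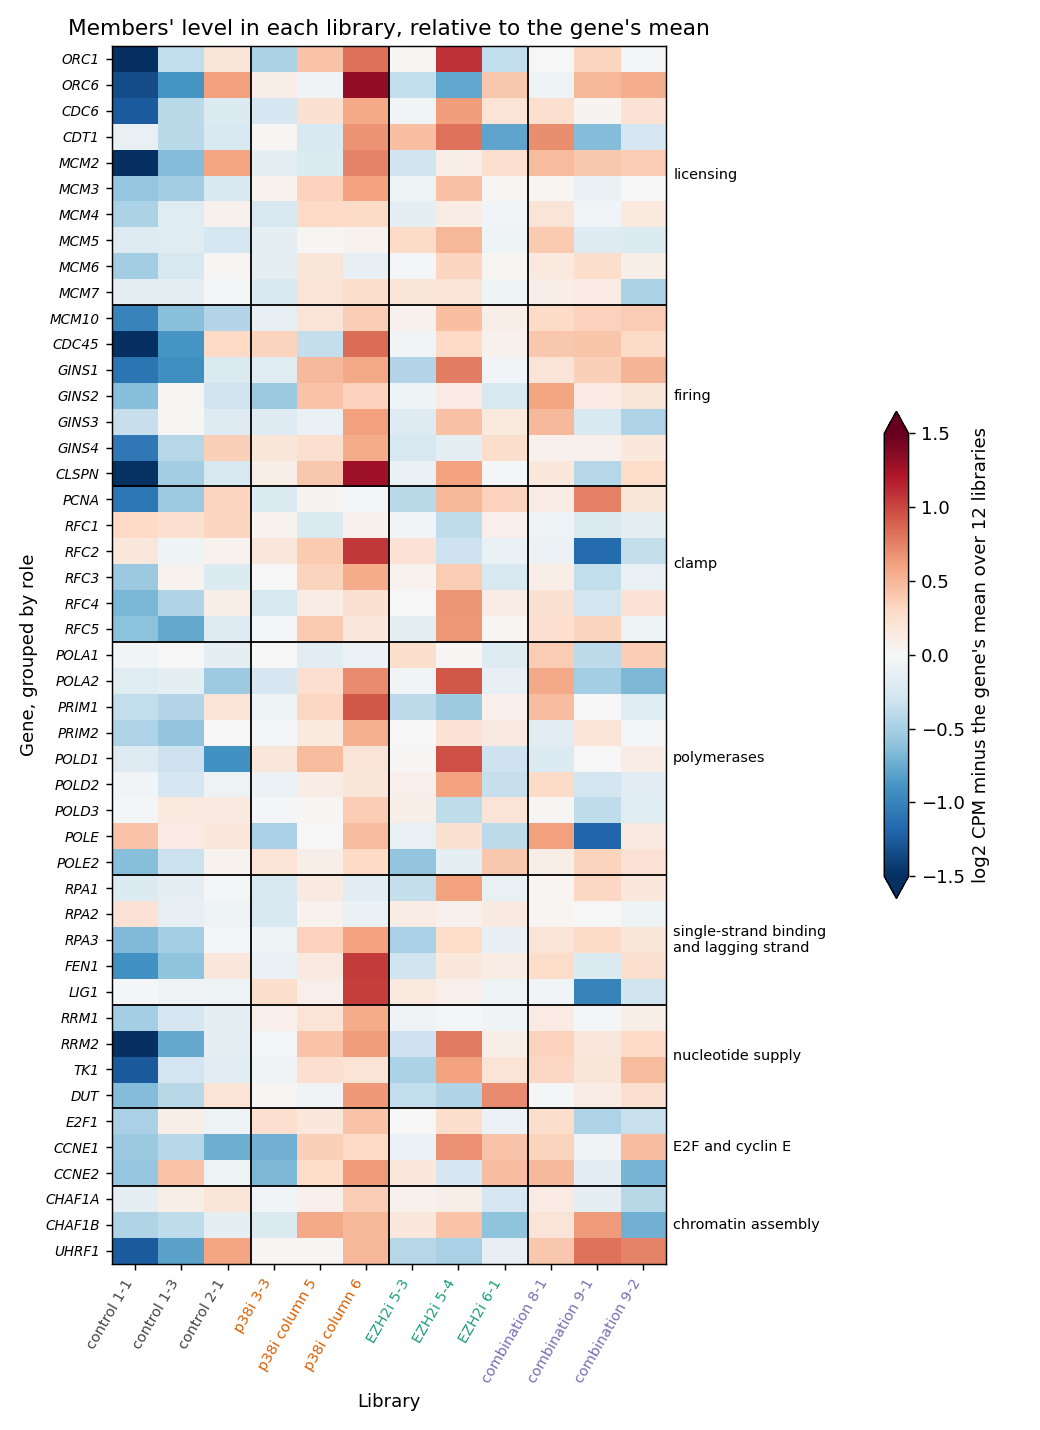
Each cell is the log2 CPM of 1 member (row, grouped by role) in 1 library (column) minus that gene's mean over the 12 libraries, with red above the mean and blue below it. Control 1-1 is the lowest library in 25 of 47 rows, and p38i column 6 the highest in 20.

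The p38i calls were lost when some single tumours were left out, also ones outside this comparison, while the direction of the median was kept. With 1 library left out, 47 or 48 members were tested, 48 where E2F2 then passed the count filter. Without control 1-1 the members' median log2 fold change with p38i was 0.35, with 43 of 48 positive, and without control 2-1 it was 0.62, with 44 of 48 positive. Without p38i column 6, the tumour with muscle transcripts, it was 0.32, with 41 of 48 positive. edgeR called no member without control 1-1 (0.251% of all genes), without control 1-3 (0.0234%) or without any 1 of the p38i tumours (0.0156% to 0.0546%). It also called none without any 1 of the combination tumours (0.678% to 1.11%). Those tumours enter through the count filter, the scaling and the shared estimate of spread. Without control 2-1 edgeR called 10 members, all higher, where 4.42% of all genes were called and 1.94% called higher. Without EZH2i 5-4 it called 4, all higher (1.63% of all genes), and without EZH2i 6-1 MCM3 alone (0.565%). MCM3 had a log2 fold change of 0.65 to 0.92 across the libraries left out (edgeR adjusted p = 0.0204 to 0.195), and MCM10 one of 0.71 to 0.98 (0.0292 to 0.205). Without control 2-1, 6 members were called higher with the combination (MCM2, MCM10, CDC45, PCNA, RRM2 and UHRF1), where 0.957% of all genes were, and MCM10 was called higher with EZH2i, where 0.327% were.

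Without p38i column 6 the p38i medians of the roles were 0.25 for licensing, 0.51 for firing, 0.26 for the clamp and loader and 0.32 for the polymerases. They were 0.23 for single-strand binding and the lagging strand, 0.52 for nucleotide supply, 0.34 for E2F and cyclin E and 0.25 for chromatin assembly. All were lower than with this tumour and none was negative. Among the genes described below, CLSPN then measured 0.91 on the log2 scale, FEN1 0.39, LIG1 0.23, RFC2 0.26, ORC6 0.27 and MCM2 0.08, while RFC5 measured 0.72 and POLD1 0.87. Without EZH2i 5-4, the EZH2i log2 fold changes of GINS1, RFC5, POLD1, RRM2 and CHAF1B were 0.46, 0.45, 0.36, 0.59 and 0.15.

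Promoters were read for the motif that E2F factors are known to bind, because these genes share that family of regulators. The letters searched were TTTCCCGC, TTTCGCGC, TTTGCCGC and TTTGGCGC, on both strands, in RefSeq windows (GRCh38.p14) from 250 bases before to 50 after each gene's start. Of the 43 members with a window there, 22 held at least 1 match (51.2%). Over all genes with a window it was 1090 of 27305 (3.99%). Of the 12514 genes tested, 9990 had a window, and 657 of these held a match (6.58%). By window, 23 of 58 held a match (39.7%), against 1164 of 35116 (3.31%). For the genes tested it was 704 of 14703 windows (4.79%). A match is a run of letters and no evidence of binding, and the data hold no binding measurement. By role, a match was found in 6 of 8 licensing, 4 of 6 firing, 2 of 6 clamp and loader, and 4 of 8 polymerase and primase genes. It was found in 1 of 4 genes of single-strand binding and the lagging strand, 2 of 5 of nucleotide supply, 2 of 3 of E2F and cyclin E and 1 of 3 of chromatin assembly. Of 45 other replication genes 14 held one, and of 16 mitotic genes 2. The windows below, in the direction of transcription with the motif in capitals, are the 2 matches of MCM3, the called gene that has any, and those of CDC6, CLSPN and POLE2, from licensing, firing and the polymerases.
MCM3, chr6:52284879-52284946, minus strand: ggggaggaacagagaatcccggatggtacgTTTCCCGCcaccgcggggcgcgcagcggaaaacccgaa
MCM3, chr6:52284713-52284776, minus strand: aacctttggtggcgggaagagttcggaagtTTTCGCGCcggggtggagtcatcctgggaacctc
CDC6, chr17:40287856-40287908, plus strand: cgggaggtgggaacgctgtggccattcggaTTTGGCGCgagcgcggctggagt
CLSPN, chr1:35769949-35770013, minus strand: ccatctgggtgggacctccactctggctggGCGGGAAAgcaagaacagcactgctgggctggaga
POLE2, chr14:49688185-49688249, minus strand: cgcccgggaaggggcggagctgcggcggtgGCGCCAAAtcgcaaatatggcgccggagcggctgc
The MCM3 motifs begin at positions -174 and -4 from the gene's start, those of CLSPN and POLE2 at -5. MCM6, with 4 matches, has overlapping pairs in which TTTGGCGC runs into GCGCGAAA, and each was counted. MCM10, called with p38i, and RFC5, RRM1, RRM2 and CCNE1 held none of these letters in their windows.

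Licensing genes (10 members) had a positive fold change in 10 of 10 with each treatment, with median log2 values of 0.47 with p38i, 0.42 with EZH2i and 0.40 with the combination. MCM3 measured 89.9, 94 and 116 CPM in controls 1-1, 1-3 and 2-1. It measured 140, 172 and 205 in p38i 3-3, column 5 and column 6, 128, 184 and 138 in EZH2i 5-3, 5-4 and 6-1, and 138, 127 and 135 in combination 8-1, 9-1 and 9-2. Every treated tumour lay above every control. With p38i it rose, with a log2 fold change of 0.79 (SE 0.18, edgeR adjusted p = 0.0433). With EZH2i the log2 fold change was 0.59 (SE 0.181, edgeR adjusted p = 0.173) and with the combination 0.41 (SE 0.18, edgeR adjusted p = 0.282), neither past the threshold.

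CDC6, the loading factor of the MCM helicase, had the largest mean change of its role. Its levels were 16.2, 29.7 and 34.1 CPM in control, 33.1, 46.4 and 59 in p38i, then 38.2, 61.4 and 45.4 in EZH2i and 47.2, 40.7 and 45.8 in combination tumours, in the same order of libraries. All EZH2i and combination tumours exceeded the controls, while p38i 3-3 lay below control 2-1. Its log2 fold changes were 0.77 (SE 0.269), 0.84 (SE 0.271) and 0.72 (SE 0.27), with edgeR adjusted p of 0.144, 0.184 and 0.241. The other helicase subunits changed less than MCM3 with p38i: MCM2 by 0.46 (SE 0.422), MCM4 by 0.31, MCM5 by 0.19, MCM6 by 0.21 and MCM7 by 0.20 (SE 0.182) on the log2 scale. None of them was called, and no test compared one subunit with another. ORC1 and ORC6, subunits of the complex that marks origins, had log2 fold changes of 0.80 (SE 0.494) and 0.87 (SE 0.511) with p38i. Neither was called by edgeR (adjusted p = 0.411 and 0.397). Their controls spread from 1.67 to 7.35 and from 9.16 to 36.7 CPM.

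Genes that fire origins (7 members) had the highest median of any role with each treatment, 0.84 with p38i, 0.61 with EZH2i and 0.68 with the combination, and all 7 were positive each time. MCM10 measured 17.9, 23.4 and 26.8 CPM in control, 33.4, 41.9 and 47.2 in p38i, then 38.2, 50 and 39.3 in EZH2i and 44.8, 46.5 and 47.7 in combination tumours. The 9 treated tumours all lay above the 3 controls. It rose with p38i, with a log2 fold change of 0.84 (SE 0.198, edgeR adjusted p = 0.0478). With EZH2i the log2 fold change was 0.90 (SE 0.2, edgeR adjusted p = 0.0749) and with the combination 1.01 (SE 0.198, edgeR adjusted p = 0.0958), larger values that did not pass. The threshold therefore does not separate the treatments for this gene.

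GINS1, a subunit of the 4-part GINS complex of the active helicase, had the largest mean change of its role. It measured 11.7, 13.2 and 21.8 CPM in control, 22.5, 36.2 and 38.2 in p38i, then 18.7, 43.7 and 24.9 in EZH2i and 29.3, 32.8 and 36.7 in combination tumours. Its log2 fold changes were 1.03, 0.90 and 1.06 (SE 0.319, 0.322 and 0.318), with edgeR adjusted p of 0.105, 0.225 and 0.197. The p38i and combination tumours did not overlap the controls, and EZH2i 5-3 did. GINS2, GINS3 and GINS4, which form a complex with it, had log2 fold changes between 0.16 and 0.63 over the 3 treatments, none of them called. CLSPN, the fork protein claspin that also signals to CHEK1, had the largest p38i value, 1.33 (SE 0.355, edgeR adjusted p = 0.0781). It measured 28.7, 56.4 and 69 CPM in control and 86.6, 108 and 197 in p38i tumours, and is described by library after its values were seen.

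**Figure D3:**
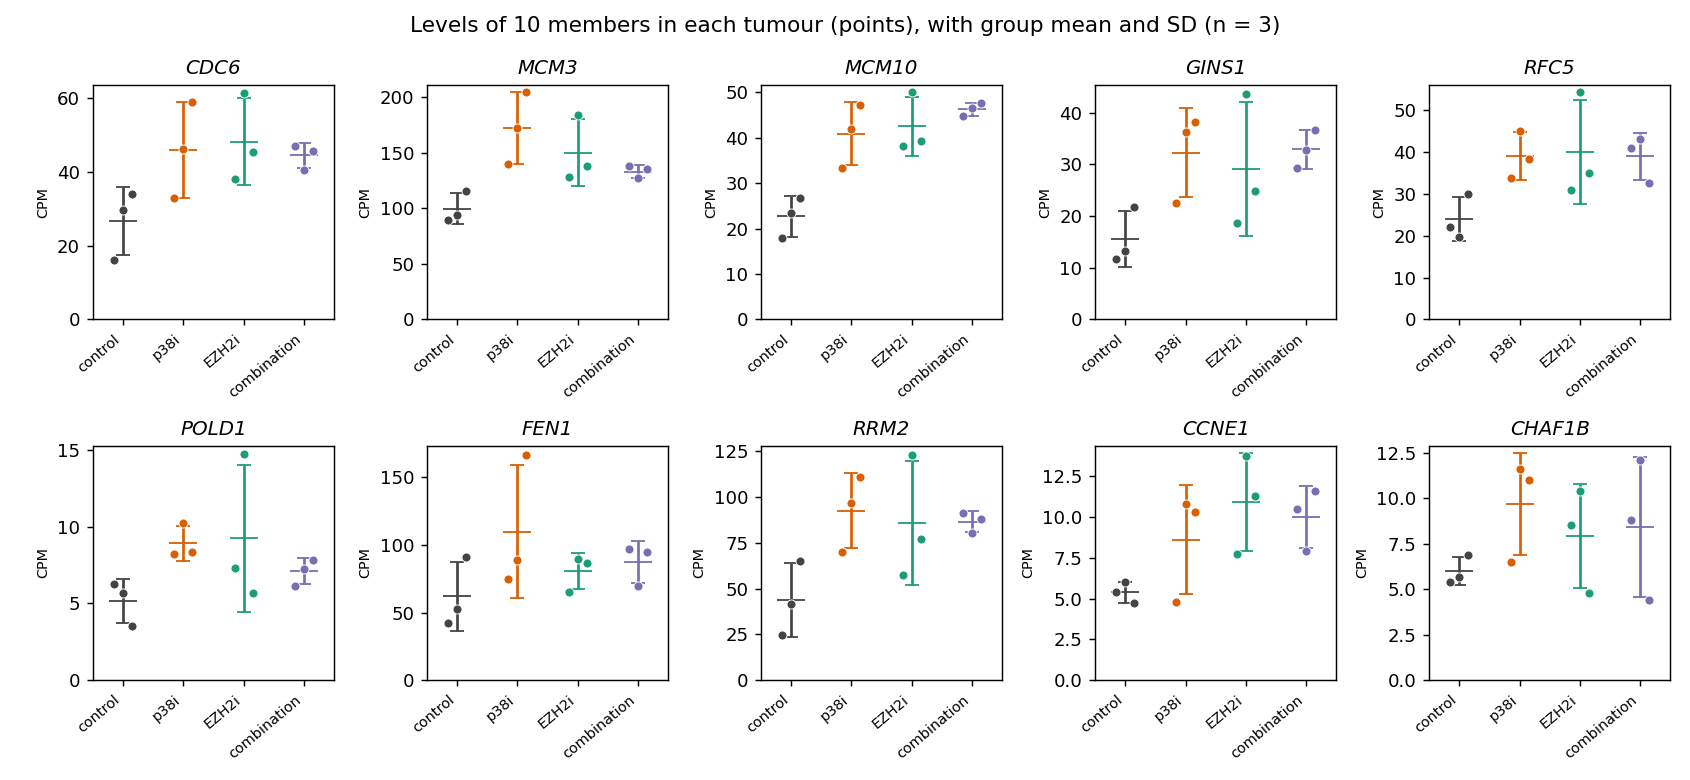
CPM (y axis) of 10 members in each tumour (points), with the group mean (long line) and SD (bar with caps, n = 3), for the 4 groups on the x axis. MCM3 and MCM10 are the genes called with p38i, and their 9 treated tumours lie above all controls. RFC5 shows no overlap either, and the other 7 overlap the controls in at least 1 treated group.

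The clamp and its loader (6 members) were mixed. PCNA, the sliding clamp, spread from 39.5 to 106 CPM among the controls and had log2 fold changes of 0.24, 0.50 and 0.69 with p38i, EZH2i and the combination, none called. RFC5, a small subunit of the clamp loader, measured 22.1, 19.8 and 29.9 CPM in control, 33.7, 45 and 38.4 in p38i, then 30.9, 54.2 and 34.9 in EZH2i and 41, 43.1 and 32.6 in combination tumours. All 9 treated values were above the controls, with log2 fold changes of 0.70, 0.75 and 0.70 (SE 0.238, 0.239 and 0.237) and edgeR adjusted p of 0.133, 0.183 and 0.226. An exon of RFC5 overlaps WSB2 on the other strand in the GENCODE annotation, and whether the counting used strand is not given, so reads of both may have been mixed.

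RFC1, the large subunit of the same loader, went the other way. It measured 248, 237 and 252 CPM in control, 209, 172 and 210 in p38i, then 194, 153 and 211 in EZH2i and 192, 172 and 182 in combination tumours. All 9 treated tumours lay below all controls, the only member with that order. How many of all genes had that order was not counted, and the 3 comparisons share these controls. The log2 fold changes of -0.32, -0.40 and -0.43 did not pass (SE 0.148 each, edgeR adjusted p = 0.271, 0.238 and 0.226). RFC2, another small subunit, lay wholly above control with p38i (log2 fold change 0.59) and wholly below it with the combination (-0.60), at 2.64 to 14.4 CPM over the 12 libraries. Neither value was called by edgeR (adjusted p = 0.398 and 0.427).

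Polymerase and primase genes (9 members) had medians of 0.47, 0.20 and 0.22, with 7, 6 and 7 positive. POLD1, the catalytic subunit of polymerase delta, which extends the lagging strand, had the largest mean change and low levels. It measured 6.24, 5.7 and 3.56 CPM in control, 8.18, 10.2 and 8.32 in p38i, then 7.32, 14.7 and 5.67 in EZH2i and 6.15, 7.26 and 7.84 in combination tumours. Only the p38i tumours cleared all controls. Its log2 fold changes were 0.81, 0.90 and 0.48 (SE 0.369, 0.371 and 0.373, edgeR adjusted p = 0.258, 0.28 and 0.521). The EZH2i value was 0.36 without EZH2i 5-4, and the combination value 0.25 without control 2-1. POLA1, the catalytic subunit of polymerase alpha, which makes primers with primase, was near 0 in each comparison (-0.02, 0.10 and 0.22). POLE, that of the leading-strand polymerase epsilon, was at -0.18, -0.30 and -0.24, with SEs of 0.405 to 0.414.

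Of the genes for single-strand binding and lagging-strand maturation (5 members), FEN1, the nuclease that trims Okazaki fragments, had the largest mean change. It measured 42.5, 52.8 and 91 CPM in control, 75, 88.6 and 167 in p38i, then 65.5, 89.7 and 86.9 in EZH2i and 97.3, 69.6 and 95.1 in combination tumours. Control 2-1 overlapped every treated group. The log2 fold changes were 0.82, 0.37 and 0.48 (SE 0.312, 0.315 and 0.313), none called by edgeR (adjusted p = 0.184, 0.618 and 0.452). The p38i value was 0.39 without p38i column 6, and without control 2-1 it was 1.21, with an edgeR adjusted p of 0.0415. Without control 1-1 the EZH2i and combination values were 0.17 and 0.28, and without control 2-1 they were 0.76 and 0.87. FEN1 also shares exon sequence with TMEM258 and FADS2 in the annotation. RPA3, the smallest subunit of the single-strand binding protein RPA, had values of 0.69, 0.30 and 0.59, while RPA1 and RPA2, its partners, lay between -0.10 and 0.29. LIG1, which seals the fragments, was at 0.58 with p38i, 0.10 with EZH2i and -0.35 with the combination, again none called.

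Nucleotide supply genes (4 tested members) were positive in 4 of 4 with each treatment, with medians of 0.60, 0.49 and 0.58. RRM2, the regulated subunit of ribonucleotide reductase, which makes deoxynucleotides, measured 24.6, 41.7 and 65.2 CPM in control and 70.2, 96.6 and 111 in p38i tumours. It measured 57.3, 123 and 76.8 in EZH2i and 91.1, 80.4 and 88.2 in combination tumours. The p38i and combination tumours lay above all controls, and EZH2i 5-3 did not. Its log2 fold changes were 1.06, 0.96 and 0.96 (SE 0.319, 0.32 and 0.319, edgeR adjusted p = 0.103, 0.202 and 0.223).

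RRM1, the large subunit, is named here after its values were seen. It measured 255, 305 and 328 CPM in control, 382, 420 and 532 in p38i, then 350, 357 and 349 in EZH2i and 396, 357 and 386 in combination tumours. All 9 treated values exceeded the controls, with log2 fold changes of 0.59, 0.25 and 0.36 (SE 0.151 each) and edgeR adjusted p of 0.0639, 0.462 and 0.271. TK1, thymidine kinase of the salvage pathway, was at 0.62, 0.68 and 0.81, and DUT, which removes dUTP, at 0.48, 0.30 and 0.35, none called. RRM2 has 3 named pseudogenes and DUT has 8, so their reads may have been split or lost in counting.

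E2F and cyclin E genes (3 tested members) had medians of 0.42, 0.21 and -0.03. CCNE1, the cyclin E1 that activates CDK2 at S phase entry, measured 5.41, 6 and 4.74 CPM in control, 4.77, 10.8 and 10.3 in p38i, then 7.72, 13.7 and 11.3 in EZH2i and 10.5, 7.93 and 11.6 in combination tumours. All EZH2i and combination tumours lay above the controls, and p38i 3-3 lay among them. Its log2 fold changes were 0.69, 1.03 and 0.89 (SE 0.348, 0.348 and 0.346, edgeR adjusted p = 0.305, 0.199 and 0.248). E2F1, an activator of S phase genes, was at 0.42, 0.21 and -0.03, and CCNE2, the second cyclin E, at 0.22, 0.15 and -0.04. The median of this role was thus positive with p38i and EZH2i and near 0 with the combination, where it was the value of E2F1 (SE 0.24). That of the chromatin assembly genes was negative with EZH2i (-0.08). The medians of all other roles, licensing and nucleotide supply among them, were positive with every treatment. No test compared the roles.

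Chromatin assembly genes (3 members) had medians of 0.44, -0.08 and 0.50, and none was called. CHAF1B, a subunit of the CAF-1 complex that puts histones on new DNA, measured 5.41, 5.7 and 6.87 CPM in control, 6.48, 11.6 and 11 in p38i, then 8.54, 10.4 and 4.8 in EZH2i and 8.79, 12.1 and 4.39 in combination tumours. Each treated group overlapped the controls, and an exon of the gene overlaps MORC3 in the annotation. Its log2 fold changes were 0.69, 0.42 and 0.50 (SE 0.39, 0.399 and 0.391, edgeR adjusted p = 0.367, 0.664 and 0.526). The combination value was 0.15 without combination 9-1 and 0.80 without combination 9-2. UHRF1, which keeps DNA methylation on replicated strands, was at 0.44, -0.13 and 0.91, with controls from 6.66 to 25.4 CPM.

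**Figure D4:**
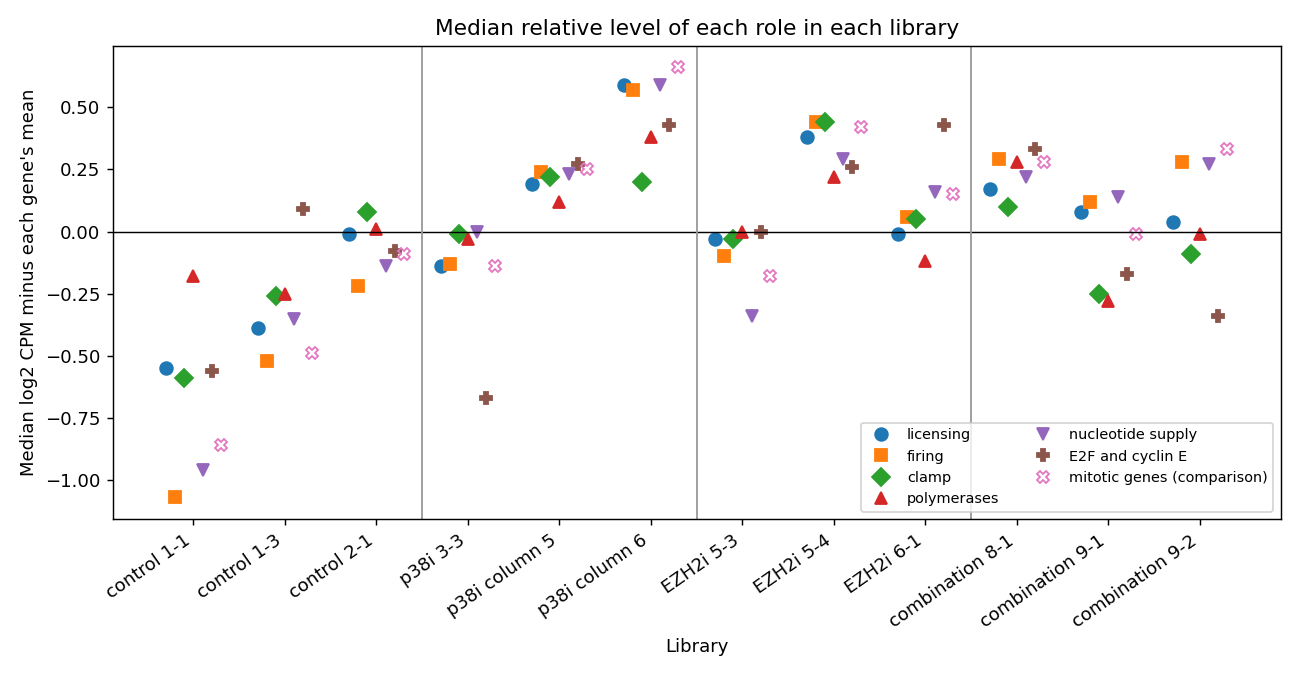
Median over the genes of a role of log2 CPM minus each gene's mean over 12 libraries (y axis), for each library (x axis), for 6 roles (licensing, firing, clamp, polymerases, nucleotide supply, E2F and cyclin E) and, as a comparison, 20 mitotic genes. Control 1-1 lies below 0 for all of them and control 1-3 for all but E2F and cyclin E (0.09), which are lowest in p38i 3-3 (-0.67).

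The combination was then set against each single agent, and the effects of both were tested for additivity. No member differed by edgeR between the combination and p38i or between the combination and EZH2i (0% of all genes were called in either). Against p38i the members' median log2 difference was -0.11, with 16 of 47 positive (51.4% of all genes). Against EZH2i it was -0.03, with 23 positive (47.7%). At an unadjusted p of 0.05, LIG1 (-0.93, SE 0.255, edgeR adjusted p = 0.575) and RFC2 (-1.18, SE 0.361, edgeR adjusted p = 0.575) were lower with the combination than with p38i, while none was higher (4.28% and 3.52% of all genes). Against EZH2i, UHRF1 was higher at that level (1.04, edgeR adjusted p = 0.991) and none was lower (1.45% and 1.67% of all genes). The combination tumours lay wholly above p38i tumours in 1 member and below them in 5 (6.77% and 8.18% of all genes), and wholly above EZH2i tumours in 3 and below them in 1 (3.34% and 3.77%). Without p38i column 6, the median against p38i was 0.07, so the sign of that small difference rests on this library.

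The interaction, the combination minus both single agents plus control on the log2 scale, was positive in 5 of 47 members and negative in the others. Its median was -0.48, beside -0.01 over all genes, of which 49.3% were positive. No member passed (0.024% of all genes were called, 0.016% higher and 0.00799% lower), and the smallest edgeR adjusted p was 0.133, for MCM3 (-0.96, SE 0.254). At an unadjusted p of 0.05, 10 members were negative and 0 positive (6.94% and 6.19% of all genes): CDC6, MCM3, MCM10, CLSPN, RFC3, RFC5, POLD1, LIG1, RRM1 and RRM2. The control enters this contrast as well as each single comparison, so a lower control value raises each single comparison and lowers this one. The median was -0.37 without control 1-1, -0.72 without control 2-1 and -0.31 without p38i column 6. MCM3 shows the form of it in its levels, with means of 99.8 ± 13.8 CPM in control, 172 ± 32.6 in p38i, then 150 ± 30 in EZH2i and 133 ± 5.79 in combination tumours (SD, n = 3).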

How the data were processed

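RNA from 12 xenograft tumours (4 groups of 3) was measured. The deposited values are whole-number counts per gene symbol, 1 column per library. Per the submitters' processing notes, Trim Galore 0.5.0, STAR 2.6.0 and the build hg19 were used. The labels' protocols name both SMARTER and QuantSeq kits. The counting program, its use of strand and any removal of mouse reads are not given in the sources used here. Lines without a gene symbol (3, all with 0 counts) were dropped.

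Samples were joined to columns through the column number in their descriptions, read as the name in the header. edgeR 4.0.16 (R 4.3.3) filtered genes with filterByExpr (12514 kept), scaled libraries by TMM, fitted 1 robust quasi-likelihood model to 4 groups and gave two-sided tests of 6 comparisons. P-values were adjusted by Benjamini-Hochberg over all genes tested, with a threshold of 0.05. The biological coefficient of variation was 0.219. The code was tested on simulated counts. All adjusted p-values come from this fit unless another tool is named. Nothing in the labels beyond the titles says that tumours of a group came from separate mice, so p-values measure the spread between these samples.

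The members, their roles and the gene lists were chosen with earlier results of these data known. Every member may be named. Values per library are given for members called in any comparison and, per role, for the one with the largest absolute log2 fold change averaged over the 3 treatments, and others named with such values were added after seeing them. Of the other replication genes, those called are named, or otherwise the 3 with the smallest p. Exon overlaps and pseudogenes were read from GENCODE 29 (GRCh38), which is another build than that of the counts. Alternatives were RLE size factors, library totals, no filter, a mean of at least 5 CPM, DESeq2 1.42.0, voom of limma 3.58.1, only the 2 groups compared, and each library left out.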

Additional observations from a re-analysis of the deposited data

How the results depend on the processing

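The direction of the members' median log2 fold change against control was kept under every alternative run, with p38i between 0.32 and 0.66, with EZH2i between 0.20 and 0.53 and with the combination between 0.27 and 0.55 when 1 library was left out. The number of members called was not stable. With p38i it was 2 of 47, 6 with DESeq2 (CLSPN, GINS1, MCM3, MCM10, RRM1 and RRM2), 3 with library totals as the scaling, 0 with limma-voom, 0 with only the 2 groups compared, and 0 to 10 with 1 library left out. With limma-voom the adjusted p was 0.05 for MCM3, just above the threshold before rounding, and 0.06 for MCM10, and with only the 2 groups compared 0.053 and 0.0738. All genes called with p38i numbered 221, and 2 to 568 with 1 library left out. Over the 7 other settings they ran from 161 with limma-voom to 632 with DESeq2. With EZH2i no member was called, 1 without a filter on low counts, 1 with DESeq2 and 0 to 1 with a library left out, MCM10 each time. All genes called with EZH2i numbered 27, with 18 under library totals, 114 without a filter, 232 with DESeq2, 4 with only the 2 groups compared and 2 to 125 with a library left out. With the combination no member was called, 1 without a filter, 1 with DESeq2 (MCM10 in both) and 0 to 6 with a library left out. All genes called there numbered 1, with 3 under library totals, 42 without a filter, 167 with DESeq2, 2 with limma-voom, 4 with only the 2 groups compared and 0 to 229 with a library left out. The interaction called no member, and 1 with DESeq2 (MCM3, adjusted p = 0.0321). All genes called in it numbered 3, with 70 without a filter, 226 with DESeq2 and 2 to 42 with a library left out, and it cannot be fitted with only 2 groups. Between the combination and the single agents no gene was called, apart from 1 without a filter and 7 with DESeq2 against p38i and 1 with DESeq2 against EZH2i. The cause of these differences was not tested. No value of a called member changed sign. Depth limits the members at low levels, since 1 count was worth 0.22 to 0.437 CPM. No paired analysis was possible because the groups share no tumour numbers in the titles.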

Other observations

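A further 55 genes of DNA replication and its control, 54 of them tested, were read beside the 49 members. Among them 42 had a positive fold change with p38i, 38 with EZH2i and 43 with the combination. Over all genes 49.9%, 51% and 50.4% were positive. The list's median log2 values were 0.33, 0.24 and 0.27. GMNN, geminin, the inhibitor that blocks re-licensing by binding CDT1, rose with p38i, with a log2 fold change of 1.10 (SE 0.228, edgeR adjusted p = 0.0331). It measured 44.1, 44.4 and 61.9 CPM in controls 1-1, 1-3 and 2-1, and 87.9, 110 and 126 in p38i 3-3, column 5 and column 6. It measured 70.3, 127 and 87.7 in EZH2i 5-3, 5-4 and 6-1, and 71.8, 84.5 and 99.2 in combination 8-1, 9-1 and 9-2. All 9 treated tumours lay above all controls, an order that was not counted over all genes. The EZH2i and combination values did not pass (log2 0.92 and 0.76, edgeR adjusted p = 0.119 and 0.197). Without p38i column 6 the p38i value of GMNN was 0.98 (edgeR adjusted p = 0.146), with a list median of 0.24.

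A list of 20 mitotic genes, of which TOP2A and CCNA2 are also among those 55, lay higher in the treated tumours as the replication genes did. All 20 had a positive fold change in each comparison with control, where 49.9% to 51% of all genes did. Their median log2 values were 0.69 with p38i, 0.54 with EZH2i and 0.63 with the combination. BUB1, a kinase of the spindle checkpoint, was the only one called, with p38i, where it rose by 1.18 on the log2 scale (edgeR adjusted p = 0.0461). It measured 11.7, 17.7 and 23.5 CPM in control and 31.7, 39.7 and 49.9 in p38i tumours. Without p38i column 6 its value was 1.00 (edgeR adjusted p = 0.198) and the list's median 0.50, with 20 of 20 positive. Relative to each gene's mean over the libraries, the list's median log2 CPM was -0.86 in control 1-1, -0.49 in control 1-3 and -0.09 in control 2-1, against -0.18 to 0.66 in the treated tumours. The order of the 3 controls was thus the same for mitotic as for replication genes, and the part of this spread in the differences from control was not tested beyond leaving out each control.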
